A study of Mus musculus with 4 samples.

Results

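Lmx1a, Lmx1b, Otx1, Otx2, Zic1, Zic2, Zic4 and Zic5 are transcription factor genes of the roof plate and of the midline of the embryonic forebrain. The 8 genes were chosen by name, and all 8 were found among the 21937 features of 4 single-cell count matrices. Their UMI counts, which number the RNA molecules caught from a gene, were followed by library, by expression of the tdTomato reporter and by cell type, and the Zic genes were compared between neural and meningeal cells.

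The cells came from the telencephalic midline of mouse embryos, dissected around the cortical hem, and were profiled with the 10x Chromium 3' v3.1 kit at E11.5 and E14.5. Control embryos were Lmx1aCre::Ai9, and gof embryos were Lmx1aCre::Ai9::b-cat gof. Both genotypes therefore carried a Cre driven by Lmx1a, itself one of the 8 genes, and the Ai9 reporter, which makes tdTomato after Cre has acted. The gof embryos carried in addition the allele written b-cat gof in the labels, which do not say how it was built. Each age and genotype gave 1 library, 4 in all, made from 1 pool of male embryos (5 embryos at E11.5, 3 at E14.5).

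The roof plate is the dorsal midline of the neural tube and secretes BMP and Wnt proteins, and the cortical hem is its counterpart at the edge of the cortex. Lmx1a and Lmx1b are LIM homeodomain factors that specify roof plate, Otx1 and Otx2 are homeodomain factors needed for forebrain and midbrain, with Otx2 also acting in the choroid plexus, and the Zic genes encode zinc finger factors of the dorsal midline. Zic genes are also active in the meninges, the mesenchymal covering of the brain, which makes the class of cell part of any reading of them.

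By GENCODE M21 on GRCm38, all 8 genes are protein-coding. Lmx1a (ENSMUSG00000026686) lies on chromosome 1 from 167689237 to 167848741, Lmx1b (ENSMUSG00000038765) on chromosome 2 from 33560965 to 33640511, Otx1 (ENSMUSG00000005917) on chromosome 11 from 21994764 to 22002897 and Otx2 (ENSMUSG00000021848) on chromosome 14 from 48657677 to 48673819. The Zic genes stand in head-to-head pairs. Zic1 (ENSMUSG00000032368, chromosome 9, 91358058 to 91365810, minus strand) and Zic4 (ENSMUSG00000036972, 91362413 to 91389348, plus strand) overlap over 3398 bases at their 5' ends, while their 3' ends, which this chemistry reads, lie apart. Zic5 (ENSMUSG00000041703, chromosome 14, 122456795 to 122465677, minus strand) and Zic2 (ENSMUSG00000061524, 122475435 to 122479852, plus strand) have start sites 9758 bases apart. Nothing in the sources used here says whether counting took strand into account.

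The genomic sequence before RefSeq start sites of Lmx1a, Zic1 and Otx2 is shown because these genes differed in opposite ways between genotypes or followed tdTomato most closely in the results that follow. Each is the part of a RefSeq promoter window (GRCm38.p6) that lies before the start and outside annotated exons, written 5' to 3' on the gene's strand, at chr1:167689308-167689556, chr9:91365811-91366018 and chr14:48667645-48667894. In the GENCODE annotation, whose outermost starts differ from these, the Lmx1a and Otx2 stretches lie within their own genes and the Zic1 stretch within Zic4. The Otx2 stretch belongs to 1 of several Otx2 windows. Capitals mark matches to the homeodomain core TAATTA.
Lmx1a: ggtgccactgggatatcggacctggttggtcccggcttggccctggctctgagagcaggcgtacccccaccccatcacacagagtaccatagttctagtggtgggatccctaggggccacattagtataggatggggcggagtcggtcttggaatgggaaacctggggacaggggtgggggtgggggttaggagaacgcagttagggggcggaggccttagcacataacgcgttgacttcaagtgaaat
Zic1: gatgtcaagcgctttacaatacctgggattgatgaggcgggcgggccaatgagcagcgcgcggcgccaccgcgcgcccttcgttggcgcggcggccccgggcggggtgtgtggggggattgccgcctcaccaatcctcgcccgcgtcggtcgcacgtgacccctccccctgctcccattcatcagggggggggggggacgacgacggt
Otx2: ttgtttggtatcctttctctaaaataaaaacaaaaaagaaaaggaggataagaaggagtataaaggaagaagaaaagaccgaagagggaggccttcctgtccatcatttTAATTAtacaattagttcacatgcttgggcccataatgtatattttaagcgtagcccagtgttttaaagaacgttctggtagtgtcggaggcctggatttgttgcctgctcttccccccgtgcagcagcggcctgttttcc

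Of the 8 genes, 6 had a window in that table, and the 300-base windows were searched on both strands for 3 short motifs. CTTTGA, the core read by Tcf and Lef factors, which partner beta-catenin, was found in the window of Zic4 and in 16.0% of all 32851 windows. The core read by Otx factors, TAATCC, was found in 1 window of Otx2 and in 7.06% of all windows. The homeodomain core was found in windows of Otx2 and in 5.29% of all windows. The Lmx1a and Zic1 windows held none of these letters. A match or its absence describes these letters only.

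Filtering kept 6510 control and 7024 gof cells at E11.5, and 6606 control and 5317 gof cells at E14.5. This order of the libraries is used wherever 4 values follow each other. The median cell held 8172.5, 5644, 12885.5 and 14072 UMIs. With a single library per group there is no replicate to check a difference against, and none was tested. Summed UMIs are given as CPM, that is, counts scaled to one common library total, with exact 95% Poisson intervals in parentheses, and shares of cells with a UMI were taken after thinning every cell to 3000 UMIs, with exact Clopper-Pearson intervals. Thinning left 6407, 6369, 6336 and 5046 cells, the shallower ones being left out. Both intervals cover counting error only. A gene was called higher or lower when it differed by at least 1.5-fold after adding 1 CPM, with separate intervals and at least 10 CPM in either sum, and the share of all tested genes that met this rule is given beside the counts. Libraries shared 6 to 13 kept cell barcodes per pair. Ctnnb1, the beta-catenin gene, had 254, 214, 310 and 288 CPM, which does not check the allele since its altered part is not named. Cell classes were gated by marker UMIs, with none of the 8 genes in a gate. The hem gate, built on Wnt and R-spondin genes, took 20.0%, 12.5%, 6.46% and 2.80% of kept cells.

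Lmx1a, Otx2, Zic2, Zic4 and Zic5 were higher in cells that carried the reporter in all 4 libraries and Zic1 in 3 of them, with wider gaps at E14.5 than at E11.5. Cells with at least 2 tdTomato UMIs (563, 294, 1110 and 1043 cells) were set against cells with 0 (5242, 6060, 4578 and 3528) within each library. In the order of the libraries, 5, 7, 6 and 6 of the 8 genes were called higher in tdTomato-positive cells and 0 lower, where 6.11%, 9.31%, 13.6% and 12.1% of all tested genes were higher and 2.41%, 4.19%, 5.44% and 5.82% lower. Lmx1b was below the minimum of 10 CPM in each of these sums. tdTomato-positive cells were deeper, most of all at E11.5, with medians of 13508 against 7827 UMIs in the control and 9688 against 5517.5 in the gof library, and 13621 against 12507 and 15904 against 13316.5 at E14.5.

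Lmx1a was read in tdTomato-positive cells at 93.1 (87.1 to 99.5), 58.0 (50.4 to 66.5), 225 (219 to 232) and 71.6 (67.9 to 75.4) CPM. In tdTomato-zero cells it was read at 16.7 (15.6 to 17.9), 14 (12.9 to 15.2), 6.38 (5.77 to 7.03) and 2.53 (2.11 to 3.01) CPM. The intervals were far apart in all 4 libraries. The share of tdTomato-positive cells with an Lmx1a UMI was 23.6, 17.1, 37.8 and 18.3% (60.2, 37.1, 65.0 and 48.3% without thinning), against 4.68, 3.65, 1.62 and 0.883% (9.81, 6.90, 4.22 and 1.90%) of tdTomato-zero cells. In endothelial-gated and macrophage-gated cells together, a class that should lack the gene, Lmx1a was at 5.15 and 0.953 CPM in the E11.5 libraries. In erythroid-gated cells, another such class described below, it was at 52.3 and 32.7 CPM, above the tdTomato-zero levels. Only 1 of the erythroid-gated cells in each E11.5 library was tdTomato-positive. Since Lmx1a drives the Cre, the difference in Lmx1a by tdTomato status is also a check of the reporter.

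Otx2 in tdTomato-positive cells stood at 165 (157 to 174), 173 (160 to 187), 166 (160 to 171) and 122 (117 to 127) CPM, with overlapping intervals in the first 3 libraries. The tdTomato-zero cells held 76.6 (74.2 to 79.0), 78.5 (75.8 to 81.3), 4.07 (3.59 to 4.60) and 1.5 (1.19 to 1.88) CPM, less at E14.5 than at E11.5 in both genotypes. At E14.5 an Otx2 UMI was found in 25.6% (23.0 to 28.2) of tdTomato-positive and 1.16% (0.859 to 1.52) of tdTomato-zero control cells, and in 24.0% (21.5 to 26.8) and 0.366% (0.189 to 0.638) of gof cells. Zic4 was read at 169, 249, 110 and 323 CPM in tdTomato-positive and 107, 116, 14 and 10.0 CPM in tdTomato-zero cells, and here too the tdTomato-zero cells of E14.5 were the low ones. At E11.5 in the control library its ratio (log2 0.66) was under 1.5-fold with both other scalings, with the mean over cells and with a reporter limit of 1 UMI, and it was -0.015 when each cell was thinned to 3000 UMIs before the status was taken.

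Zic1 was read at 317, 424, 217 and 498 CPM in tdTomato-positive and 232, 256, 64.2 and 46.1 CPM in tdTomato-zero cells, and was called in every library but the E11.5 control. Zic2 was at 80.4, 61.6, 86.6 and 120 against 47.2, 39.2, 26.9 and 22.4 CPM, and Zic5 at 154, 164, 173 and 205 against 81.4, 69.7, 61.6 and 36.3 CPM, both called in all 4 libraries. Otx1 was the exception among the 7 genes that could be called. It stood at 70.8, 78.1, 52.1 and 62.1 CPM in tdTomato-positive and 55.8, 46.9, 56.2 and 56.2 CPM in tdTomato-zero cells, and the E14.5 control cells were the lower of the pair when they carried tdTomato (log2 -0.11). Its call in the E11.5 gof library, and those of Zic1 and Zic2 there, were lost under median-of-ratios scaling, where 4 of the 7 calls in that library were left.

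**Figure D1:**
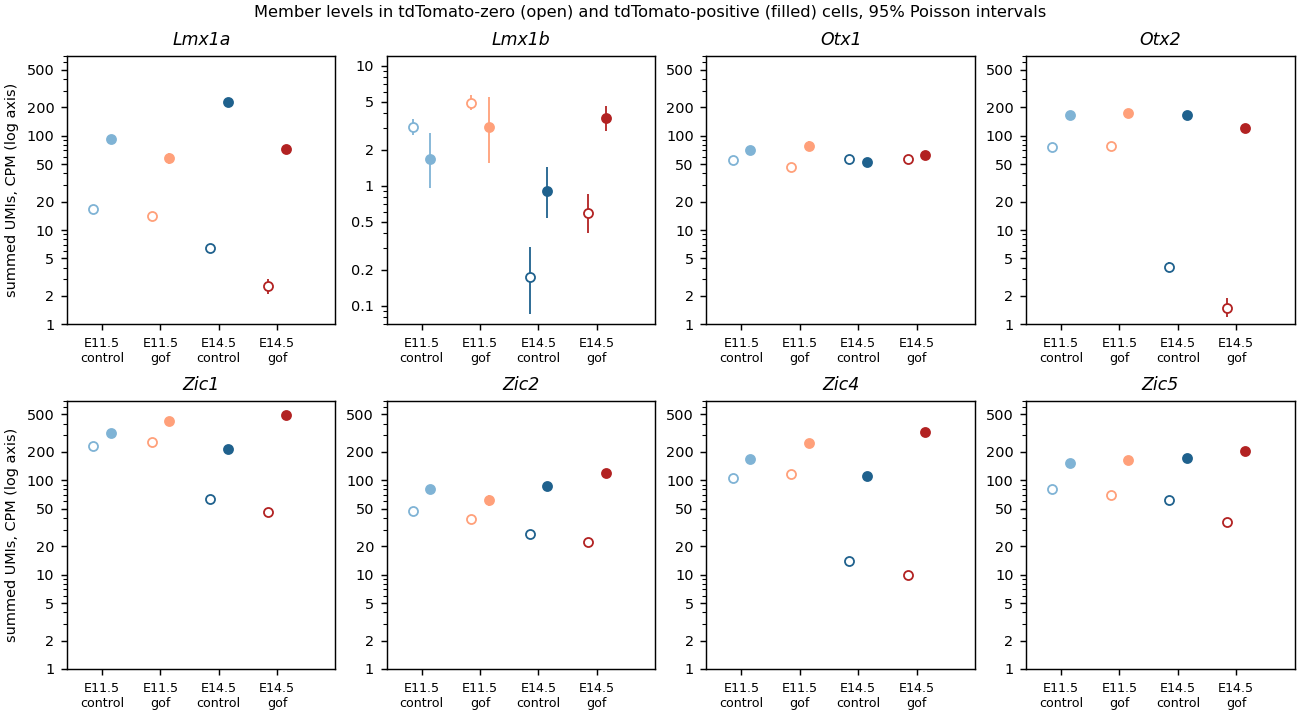
Summed UMIs in CPM (log axis) of each gene in tdTomato-zero cells (open points) and tdTomato-positive cells (filled points) of the 4 libraries, with exact 95% Poisson intervals; Lmx1b has an axis of its own. The pairs of points lie farthest apart at E14.5 for Lmx1a, Otx2 and Zic4, while Otx1 stays between 46.9 and 78.1 CPM in all 8 sums.

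With more reporter UMIs per cell, the level of Lmx1a was higher in each successive bin of every library. In E14.5 control cells with 0, 1, 2 to 3, 4 to 7 and 8 or more tdTomato UMIs it was read at 6.38, 35.1, 134, 240 and 368 CPM. In E14.5 gof cells of the same bins it was read at 2.53, 6.47, 40.8, 77.4 and 95.9 CPM. The gof level was thus the lower in each bin. At E11.5 the bin of 8 or more held 17 control and 4 gof cells, and the order of the other bins was the same without it. Zic1 went from 64.2 to 265 CPM over the control bins and from 46.1 to 603 CPM over the gof bins, and Otx1 from 56.2 to 63.3 CPM and from 56.2 to 60.4 CPM. Median depth was also greater in the last bin, going from 12507 UMIs in the control cells with 0 to 28726 in those with 8 or more, and from 13316.5 to 18452.5 in gof, and its part in these values was not tested.

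Lmx1a was the 1 gene of the 8 called lower in the whole E14.5 gof library. Over whole libraries it was read at 31.9 (30.6 to 33.3), 19.5 (18.2 to 20.7), 54.8 (53.3 to 56.3) and 19.7 (18.7 to 20.6) CPM. At E14.5, 1 gene was called lower in gof and 2, Zic1 and Zic4, higher, where 3.04% of all tested genes were higher and 8.10% lower, and the same 3 calls were made in tdTomato-positive cells, where 6.84% of all tested genes were higher and 16.6% lower. The log2 ratio of Lmx1a was -1.43 in the whole library and -1.64 in tdTomato-positive cells, beside medians of -0.09 and -0.12 over all tested genes. In bulk sums fewer cells of a type and less RNA per cell cannot be told apart. tdTomato stood at 60.9 CPM in the control and 79.2 CPM in the gof library. Because the reporter is made after Cre has acted, its level need not follow that of Lmx1a and does not tell these apart.

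At E11.5 Lmx1a was 1 gene of the 8 called lower in gof, and 0 were called higher, in the whole library (all tested genes: 4.39% higher, 4.01% lower) and in tdTomato-positive cells (4.68% higher, 5.66% lower). Its log2 ratios of -0.69 and -0.67 lay close to the limit of 1.5-fold. Neither call held in cells with 2000 genes or more whose mitochondrial share was 5% or less, with log2 ratios of -0.58 and -0.51, or with median-of-ratios scaling, with -0.57 and -0.58. In tdTomato-positive cells the call was also lost with a reporter limit of 4 UMIs (-0.54) and after thinning, where the ratio was -1.39. In all neural cells the ratio was -0.58 and not called, and in tdTomato-positive neural cells it was -0.72 and called.

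The E14.5 difference in Lmx1a was also seen in the hem, choroid plexus and intermediate progenitor gates, but not in every gate. In cells that passed the hem gate (427 control and 149 gof cells) the control level of Lmx1a was 331 (317 to 346) CPM and the gof level 141 (127 to 156) CPM, and an Lmx1a UMI was found in 57.7% (52.8 to 62.4) and 29.7% (22.5 to 37.8) of them. In the choroid plexus gate (107 and 151 cells), the gate for the epithelium that makes cerebrospinal fluid, it was at 384 (362 to 407) and 127 (116 to 140) CPM. In the intermediate progenitor gate, of Eomes-expressing neurogenic cells, it was at 44.1 (40.7 to 47.7) and 8.88 (7.14 to 10.9) CPM. All 3 were called lower in gof. The hem gate is built on genes that were themselves called lower in gof among tdTomato-positive cells, such as Rspo2 (695 and 141 CPM). Of its cells 59.7% in control and 83.9% in gof were tdTomato-positive. It may thus not have taken like cells in both genotypes, which was not tested. In pallial progenitors, with 2.55 and 2.70 CPM, and in tdTomato-positive pallial glutamatergic neurons, with 48.9 and 50.3 CPM, Lmx1a was not called. It was called higher in gof in the neurons left outside the named neuronal gates (32 UMIs in 75 control and 185 in 199 gof cells). Those neurons, described below, were of different kinds in control and gof, and 7 of the 8 genes were higher there and 0 lower (all tested genes: 8.85% higher, 12.9% lower). Cajal-Retzius cells, of which the gof library had 40, were not compared.

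Of the 8 genes, 2 were called higher and 1 lower in the hem gate at E14.5 (all tested genes: 6.50% higher, 13.7% lower), 1 higher and 2 lower in the choroid plexus gate (12.1% higher, 20.1% lower), and 0 higher and 3 lower in the intermediate progenitor gate (3.42% higher, 11.9% lower). In pallial glutamatergic neurons 5 were higher and 0 lower (3.95% higher, 6.65% lower), and in pallial progenitors 0 were called (2.40% higher, 8.62% lower). Among its 10 leading genes the hem gate had 3 of its own markers in each library, and the choroid plexus gate 4 in control and 3 in gof. The markers that define a gate stayed in this ranking, so their place there does not check the gate. The E14.5 pallial progenitor gate had none of its own markers among its 10 leading genes, and was led by Sfrp1, H1f5 and Dgkb in control and by Creb5, Aldoc and Sfrp1 in gof.

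**Figure D2:**
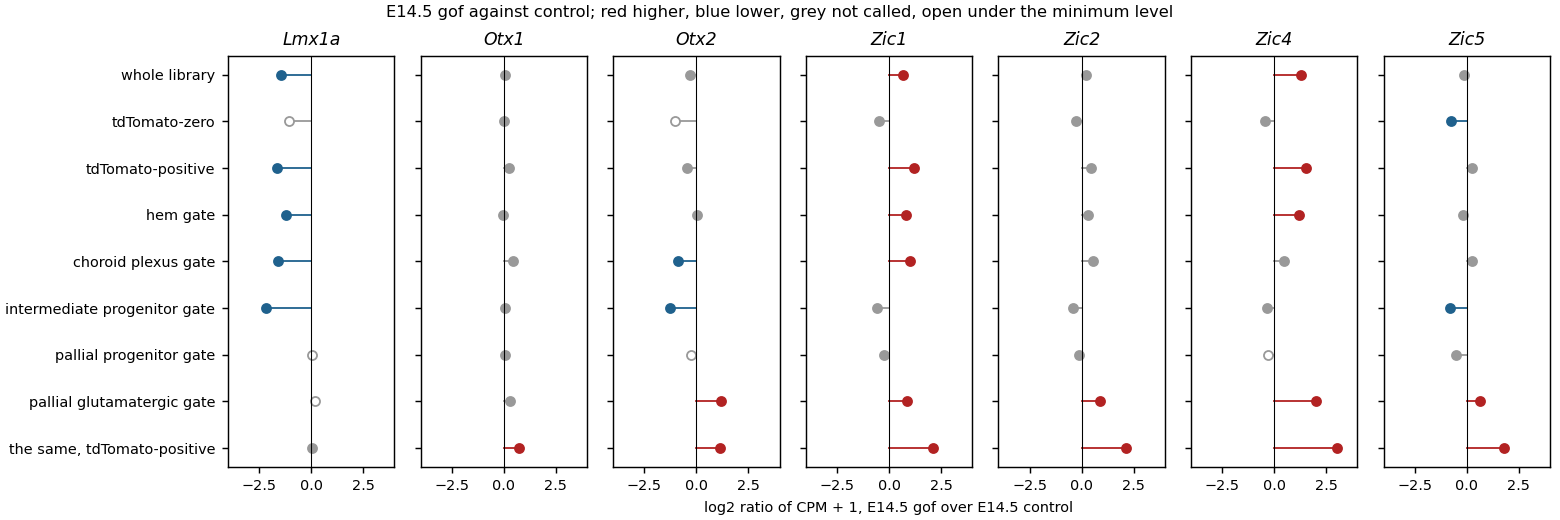
Log2 ratio of CPM + 1 in the E14.5 gof over the E14.5 control library for 7 genes (columns), in sums of cells (rows); red points were called higher, blue lower, grey not, and open points were under 10 CPM in both sums. Lmx1a lies left of 0 in the hem, choroid plexus and intermediate progenitor gates, and Zic4 lies at 3.01 in tdTomato-positive pallial glutamatergic neurons.

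By class, Lmx1a was highest in the choroid plexus gate in 3 libraries and in the hem gate in the fourth. The choroid plexus and hem levels were 103 and 65.6 CPM in the E11.5 control, 82.8 and 47.6 CPM in the E11.5 gof and 384 and 331 CPM in the E14.5 control library, with separate intervals, and 127 and 141 CPM in the E14.5 gof library, where they overlapped. Cajal-Retzius neurons, the early cortical neurons born in part from the hem, had 27.5 (17.4 to 41.3) CPM in the E11.5 control and 122 (113 to 132) CPM in the E14.5 control library. Many cells with choroid plexus markers lacked pan-neural markers. A gate without the pan-neural condition (an alternative added after the data were seen) held 184 and 165 cells at E14.5 and gave 361 and 127 CPM. Of these, 107 control and 151 gof cells held at least 2 pan-neural markers, so the condition left out mostly control cells.

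Erythroid cells, taken as a class that should lack these genes, did not lack Lmx1a UMIs. In the 158 erythroid-gated cells of the E11.5 control library Lmx1a had 118 UMIs in 70 cells, at 52.3 (43.3 to 62.6) CPM against 31.3 (29.9 to 32.6) CPM in all other kept cells. In the 206 such cells of the E11.5 gof library it had 87 UMIs in 62 cells, at 32.7 (26.2 to 40.3) CPM against 18.7 (17.5 to 20.0) CPM. Lmx1a was thus 1.67 and 1.75 times its level elsewhere, with separate intervals in both libraries. The pattern was chosen for display after its values were seen.

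Lmx1a stood apart there from the other members and listed midline genes that were compared. The share of all genes that were higher in these cells was not counted. Of the 30 other members and listed midline genes of at least 10 CPM in the remaining cells, 0 were higher in erythroid-gated cells in either library, with medians of 0.0752 and 0.0812 times the level elsewhere and a highest value of 0.152 in each. Rspo2, an R-spondin of the hem, was at 16.8 and 13.9 CPM against 225 and 134 CPM, and tdTomato at 2.66 and 2.25 CPM against 36.9 and 32.4 CPM. Lmx1a made up 75.6% (68.1 to 82.1) and 70.2% (61.3 to 78.0) of the UMIs of Lmx1a and Rspo2 together in these cells, and 12.8% and 13.2% in the whole libraries. The counts of these 2 genes thus stood in a different ratio in erythroid-gated cells. Among erythroid-gated cells with 0 pan-neural markers, 79 Lmx1a UMIs were found in 118 control cells and 64 in 130 gof cells. The cells were led by haemoglobin genes, with Hemgn also among the first 10, and had medians of 13285 and 11693.5 UMIs. They held 5.41% and 9.08% of the Lmx1a UMIs of their libraries. The cause was not tested.

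**Figure D3:**
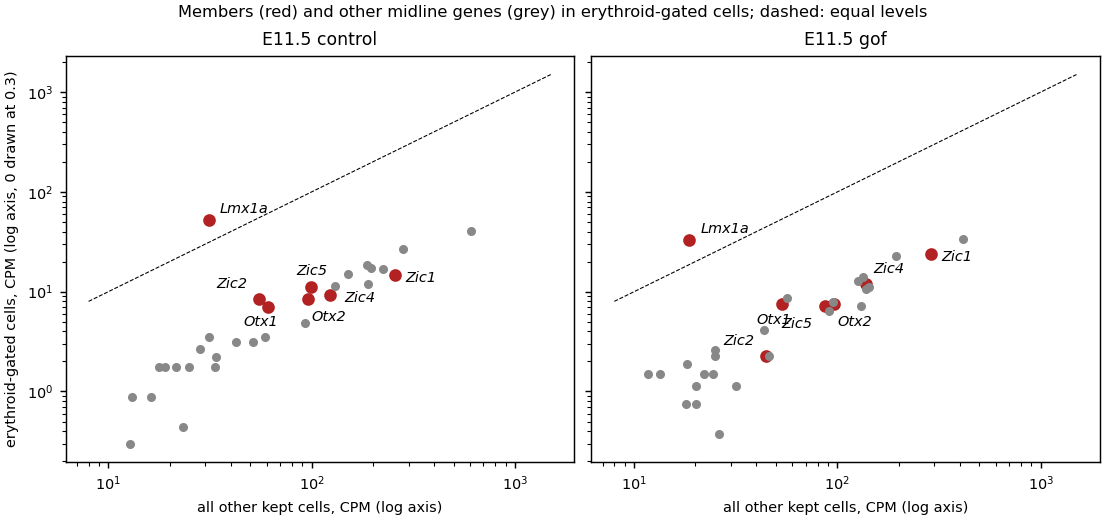
Level of each gene in erythroid-gated cells (vertical, CPM, log axis) against all other kept cells (horizontal, CPM, log axis) of the E11.5 libraries, for members (red) and listed midline genes (grey) of at least 10 CPM in the other cells. Lmx1a lies above the dashed line of equal levels in both libraries, at 52.3 and 32.7 CPM, and the remaining genes lie below it.

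Lmx1b was a gene of meningeal-gated rather than neural cells at E11.5. The gate was mesenchymal or meningeal by its markers, collagens, Lum, Dcn, Foxc1 and Twist1, which do not tell meninges from other mesenchyme. It took 628, 1087, 49 and 82 cells, and the 49 cells are below the minimum of 50 set for other classes. Lmx1b was read there at 22.2 (18.8 to 25.9) and 26.9 (23.3 to 30.9) CPM in the E11.5 control and gof libraries, against 0.462 (0.296 to 0.688) and 0.686 (0.425 to 1.05) CPM in neural cells. It was called higher in both. A UMI of it was found in 8.35% (6.30 to 10.8) and 8.28% (6.67 to 10.1) of meningeal-gated cells. At E14.5 it was at 3.88 (0.470 to 14) and 7.39 (3.93 to 12.6) CPM, under the minimum level.

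In neural cells Lmx1b was highest in 1 class of the E14.5 gof library and next highest, at 7.50 (2.04 to 19.2) CPM from 4 UMIs, in the Six3 rostral cells of E11.5 gof. In the E14.5 gof library it was at 18.4 (13.8 to 24.2) CPM in 199 neurons that passed neither the Cajal-Retzius, the GABAergic nor the pallial glutamatergic gate, and had 0 UMIs in the 75 such cells of the control library. These remaining neurons are not the same cells in both libraries. The gof cells were led by Pex5l, Fst and Chodl, with Dkk1 and Wif1 also among the first 10 genes, and 153 of the 199 were tdTomato-positive, whereas the control cells were led by Npy and Scg2 and 13 of 75 were. The gof cells also had the highest Zic1 (811 CPM), Zic4 (516 CPM) and Zic5 (326 CPM) of the named gates in that library. They are left without a name.

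Otx1 and Otx2 had different distributions over classes and genotypes. Otx2 was highest in the choroid plexus gate in all 4 libraries, though in E11.5 gof its interval overlapped that of the Fgf midline gate (222 CPM). Its choroid plexus levels were 257 (238 to 277), 261 (232 to 293), 512 (487 to 538) and 275 (258 to 293) CPM. At E14.5 it was called lower there in gof (log2 -0.89), and also in the gate without the pan-neural condition it stood at 515 against 274 CPM. In the hem gate it was level, at 132 and 133 CPM. Pallial progenitors, from the cortex beside the hem, had 1.21 and 0.853 CPM at E14.5. At E11.5 they had 17.6 (15.2 to 20.3) CPM in control and 43.4 (37.8 to 49.5) CPM in gof cells, a called difference, with Zic4 also called higher (40.8 and 62.0 CPM) among 2 higher and 0 lower of the 8 genes (all tested genes: 5.45% higher, 6.35% lower).

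Otx1 was read in every neural class of at least 50 cells. Its lowest and highest named neural gates were 34.3 CPM (Fgf midline) and 86.2 CPM (diencephalic) at E11.5 in control, and 34.6 CPM (pallial glutamatergic neurons) and 79.2 CPM (hem) in the E14.5 control library. Whole-library levels were 59.4 (57.6 to 61.3), 50.9 (48.9 to 52.9), 54.6 (53.2 to 56.1) and 57.7 (56.1 to 59.4) CPM. Otx1 was called between genotypes at E14.5 only in tdTomato-positive pallial glutamatergic neurons, 30.0 against 50.3 CPM, among the sums of at least 50 cells that were compared. Where the 2 Otx genes were read in the same neural cells of the E14.5 control library, an Otx2 UMI was found in 5.62% (4.22 to 7.30) of cells with and 5.40% (4.79 to 6.05) of cells without an Otx1 UMI. Lmx1a and Otx2 gave 34.8% (30.6 to 39.1) and 2.72% (2.31 to 3.18) in the same cells.

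**Figure D4:**
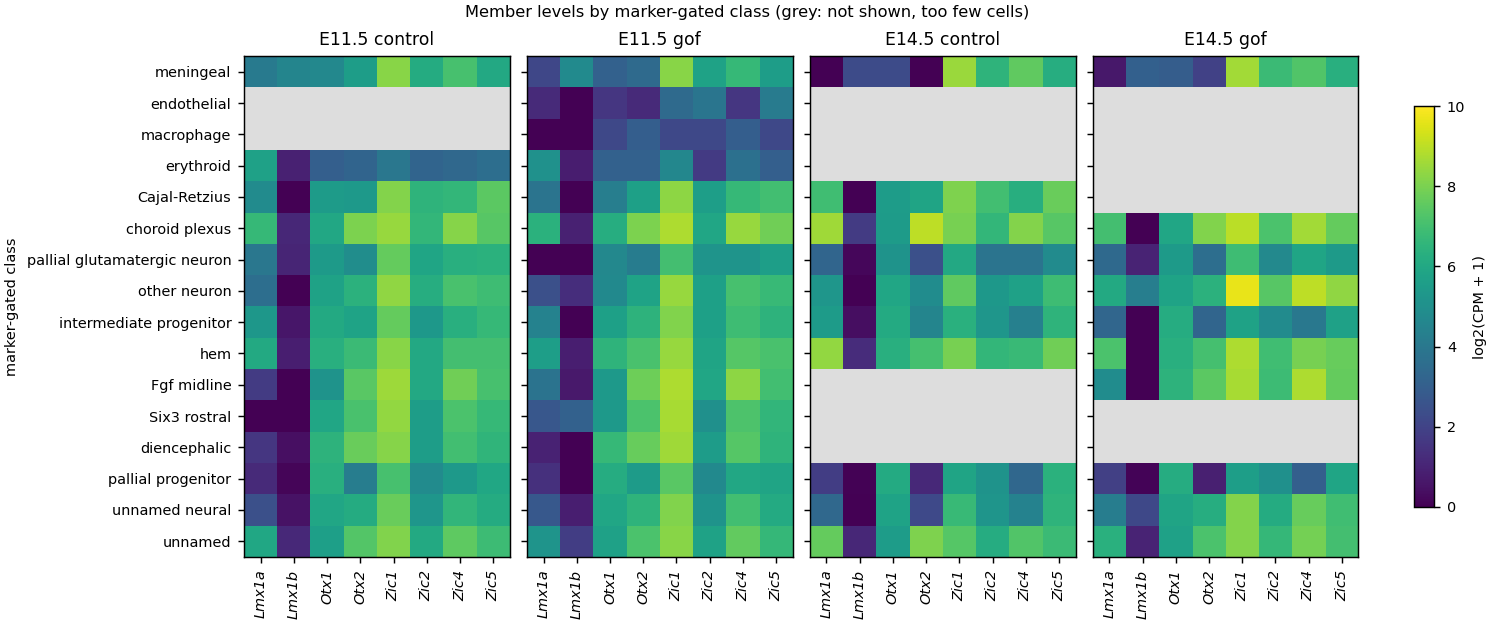
Level of the 8 genes as log2(CPM + 1), by marker-gated class (rows) and library (panels); grey cells stand for classes with fewer than 50 cells, except that the 49 meningeal-gated cells of the E14.5 control library are shown. Otx1 spans 34.6 to 79.2 CPM over the neural gates of the E14.5 control library, Otx2 and Lmx1a are high in the choroid plexus and hem gates at E14.5, and Lmx1b is high in the meningeal gate at E11.5.

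Zic1 and Zic4 were the 2 genes called higher in the E14.5 gof library. Over whole libraries Zic1 was at 248 (245 to 252), 274 (270 to 279), 99.4 (97.5 to 101) and 158 (155 to 160) CPM and Zic4 at 119 (117 to 122), 132 (128 to 135), 35.8 (34.7 to 37.0) and 87.6 (85.6 to 89.7) CPM. Zic2, at 53.7, 42.4, 40.6 and 47.3 CPM, and Zic5, at 96.2, 82.6, 86.3 and 78.2 CPM, were not called at either age. In tdTomato-positive cells of E14.5 the log2 ratios were 1.20 for Zic1, 1.54 for Zic4, 0.47 for Zic2 and 0.24 for Zic5. In tdTomato-zero cells the ratios were -0.47, -0.44, -0.26 and -0.75, where 1 gene of the 8, Zic5, was called lower (all tested genes: 2.11% higher, 7.28% lower). The whole-library call of Zic1 was lost when the mean over cells was taken in place of the sum.

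The tdTomato-positive cells of the 2 E14.5 libraries were of different kinds. In control they included 304 Cajal-Retzius, 255 hem, 197 pallial glutamatergic, 112 intermediate progenitor and 82 choroid plexus cells by gate. In gof they included 222 pallial glutamatergic, 153 of the unnamed neurons described above, 145 choroid plexus, 125 hem, 60 intermediate progenitor and 27 Cajal-Retzius cells. Pallial progenitors numbered 64 in control and 124 in gof, Fgf midline cells 1 and 48, and neural cells that passed no gate 9 and 73. Within gates the difference in Zic1 was seen in hem, at 244 (232 to 256) against 430 (405 to 456) CPM, and in choroid plexus, at 244 (227 to 262) against 500 (477 to 524) CPM. Zic4 was called higher in the hem gate (108 and 249 CPM) and not in the choroid plexus gate (280 and 392 CPM). The hem gate carries the limit given above for Lmx1a.

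The largest ratios of Zic genes within a named gate were in neurons. In pallial glutamatergic neurons with tdTomato (197 control and 222 gof cells) 6 of the 8 genes were called higher and 0 lower, where 9.60% of all tested genes were higher and 9.37% lower. The control and gof levels of Zic1 were 126 and 547 CPM, with Zic2 at 23.4 and 105 CPM, Zic4 at 36.4 and 300 CPM, and Zic5 at 54.6 and 193 CPM. Otx2 was at 26.5 and 59.7 CPM. In tdTomato-positive pallial progenitors (64 and 124 cells) Zic4 alone was called, at 11.7 and 30.6 CPM, 1 of the 8 genes (3.02% higher, 7.44% lower). In intermediate progenitors of all statuses Zic5 was called lower in gof, at 90.8 and 52.3 CPM.

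At E11.5 the whole-library ratios of the Zic genes lay between -0.33 and 0.14, and none was called. In tdTomato-positive cells of the hem gate (280 control and 114 gof cells) Zic4 was called higher, at 143 and 217 CPM, and Lmx1a lower, at 108 and 64.1 CPM, 2 of the 8 genes (all tested genes: 4.01% higher, 4.03% lower). In the whole hem gate 0 of 8 were called (3.18% higher, 3.80% lower). In tdTomato-positive cells of any class Zic4 stood at log2 0.56, and passed the limit of 1.5-fold under median-of-ratios scaling, at 0.65. In pallial glutamatergic neurons of this age 4 of the 8 genes were lower in gof, Lmx1a (28 UMIs in 162 control cells and 0 in 157 gof cells), Zic1, Zic4 and Zic5, and 0 higher (4.50% higher, 10.4% lower). The cells of this gate were not alike in the control and gof libraries. Ebf2 and Calb2 were among the 10 leading genes in control only, and Neurod6 and Tbr1 in gof only. tdTomato-positive cells numbered 13 in control and 3 in gof, and median depths were 7711 and 4836 UMIs.

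The levels of the Zic genes in meningeal-gated cells against neural cells were not ordered alike at the 2 ages. At E11.5 Zic1 was not called, at 295 (282 to 308) against 254 CPM in control and 295 (283 to 308) against 304 CPM in gof. Zic5 was lower in meningeal-gated cells, at 64.3 against 104 and 46.3 against 99.3 CPM, and was the only Zic gene of the 4 members called in either E11.5 library. Its log2 ratio in control was -0.68, and -0.54 and not called in cells with 2000 genes or more whose mitochondrial share was 5% or less. At E14.5 Zic1, Zic2 and Zic4 were called higher in both libraries and Zic5 in neither. Among all 8 genes, 1 was higher and 4 lower in both E11.5 libraries, and 3 were higher and 3 lower in both E14.5 libraries, where 15.6%, 16.8%, 18.3% and 20.7% of all tested genes were higher in the order of the libraries and 8.88%, 19.1%, 21.2% and 26.7% lower. Against a background this wide a call by itself does not set these genes apart.

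At E14.5 Zic1 in meningeal-gated cells was at 357 (307 to 412) CPM in control and 393 (364 to 424) CPM in gof, against 96.0 and 152 CPM in neural cells. Zic4 was at 188 (153 to 230) and 154 (136 to 173) against 31.7 and 85.2 CPM, and Zic2 at 89.2 (65.3 to 119) and 111 (95.8 to 127) against 39.5 and 45.6 CPM. Zic5 was at 73.7 (52.2 to 101) and 78.4 (65.9 to 92.6) against 86.2 and 78.6 CPM. The meningeal levels of Zic1 overlapped between genotypes, and the neural levels did not. Within the Zic2 and Zic5 pair, Zic5 made up 66.3%, 69.6%, 68.5% and 63.3% of the UMIs in neural cells and 47.7%, 46.7%, 45.2% and 41.4% in meningeal-gated cells. Zic4 made up 31.5%, 32.2%, 24.9% and 35.9% of the Zic1 and Zic4 UMIs in neural cells and 31.5%, 25.9%, 34.5% and 28.1% in meningeal-gated cells.

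**Figure D5:**
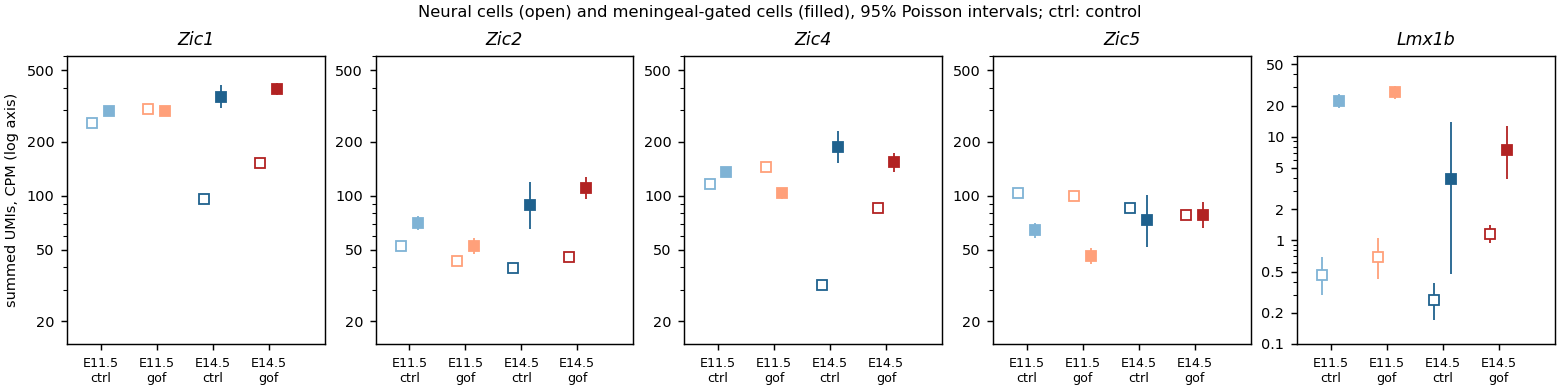
Summed UMIs in CPM (log axis) of the 4 Zic genes and Lmx1b in neural cells (open squares) and meningeal-gated cells (filled squares) of each library, with exact 95% Poisson intervals; ctrl stands for control, and Lmx1b has an axis of its own. At E14.5 the filled squares of Zic1, Zic2 and Zic4 lie above the open ones, while those of Zic5 overlap them.

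Lmx1a, Otx1 and Otx2 were lower in meningeal-gated than in neural cells in all 4 libraries. Otx2 was at 46.9, 9.83, 0 and 2.84 CPM in the former and 97.5, 114, 33.5 and 30.5 CPM in the latter, and Lmx1a at 16.0, 3.37, 0 and 0.568 against 30.5, 20.1, 51.7 and 19.6 CPM. The 0 UMIs of Lmx1a and of Otx2 in the E14.5 control meningeal-gated cells allow a share of up to 6.25% of cells with a UMI after thinning, taking 3 of the 48 cells as the limit. The E11.5 meningeal gates were not alike in purity. Of 628 control cells 163 held at least 2 pan-neural markers, and of 1087 gof cells 121 did, and tdTomato-positive cells made up 5.41% and 1.01% of them. Levels of Lmx1a, Otx1 and Otx2, which were called lower in the gof than in the control gate at E11.5 (3 of 8 genes, where 3.94% of all tested genes were higher and 11.6% lower), differed in the same direction as these shares, and the part of neural RNA in them was not tested. Zic1 was at 295 CPM in both E11.5 gates. At E14.5, 13 of 49 control and 39 of 82 gof meningeal-gated cells held at least 2 pan-neural markers. The gof cells of that age also had Hbb-y and Hba-x among their 10 leading genes. The part of RNA from other cells in the E14.5 Zic levels was not tested.

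In all neural cells Zic4 was found more often with Zic1 than without it in each library, by the widest margin in E14.5 gof. Among neural cells thinned to 3000 UMIs, a Zic4 UMI was found in 33.2%, 37.5%, 17.6% and 45.9% of cells with a Zic1 UMI, and in 20.6%, 20.7%, 4.14% and 3.25% of cells without. The intervals of the E14.5 shares were 42.8 to 49.1 and 2.71 to 3.86 in gof, and 15.5 to 19.9 and 3.60 to 4.75 in control. Among tdTomato-positive neural cells the shares with and without Zic1 had overlapping intervals at E11.5, at 36.5% and 38.4% in control and 48.5% and 43.3% in gof, and separate ones at E14.5, at 26.8% and 14.9% in control and 66.7% and 22.3% in gof. In all neural cells of E14.5 the genotypes had separate intervals among cells with Zic1 and overlapping ones among cells without. A Zic5 UMI was found in 27.7%, 29.6%, 37.3% and 39.3% of neural cells with a Zic2 UMI and 23.8%, 20.4%, 16.3% and 13.6% of those without. Pairs that are not neighbours were also found together more often at E14.5, such as Zic4 with Zic2. A Zic4 UMI was found in 15.8% and 43.9% of cells with Zic2 against 5.79% and 8.17% of cells without. The shares without Zic2 lay above those without Zic1, with separate intervals in both E14.5 libraries, so the margin was narrower for this pair. In the 48 and 81 thinned meningeal-gated cells of E14.5 the Zic1 and Zic4 shares overlapped.

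Between ages, values follow the scaling closely, because the median log2 ratio of all tested genes from E11.5 to E14.5 was 0.62 in control and 0.59 in gof whole libraries, and 0.55 and 0.46 in tdTomato-positive cells. In control whole libraries 1 of the 8 genes was higher at E14.5, Lmx1a, and 3 were lower, Otx2, Zic1 and Zic4 (all tested genes: 51.7% higher, 7.76% lower). Under median-of-ratios scaling, which removes that median shift, Lmx1a was not called (log2 0.26 in place of 0.76), and 0 were higher and 6 lower. In gof whole libraries 0 were higher and 2 lower, Otx2 and Zic1 (50.5% higher, 8.88% lower), and 4 were lower under that scaling.

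In tdTomato-positive cells of the control Otx2 stood at 165 and 166 CPM at the 2 ages. Lmx1a was called higher in the control (93.1 and 225 CPM, log2 1.27, and 0.85 by median-of-ratios) and Zic4 lower (169 and 110 CPM), 1 gene of the 8 in each direction (all tested genes: 48.5% higher, 8.99% lower). In gof Zic2 was called higher (61.6 and 120 CPM), 1 of 8 (41.7% higher, 8.37% lower), a call that was lost under median-of-ratios scaling (0.57), where 0 were higher and 2 lower. In the control that scaling gave 1 higher and 3 lower. Lmx1a in gof was at 58.0 and 71.6 CPM and not called. Age, pool and library cannot be told apart.

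Other genes of the dorsal midline gave the following counts from lists fixed with earlier results of these data known. Of 12 measured roof plate and hem signals, secreted Wnt, BMP and R-spondin proteins, 12 were higher in tdTomato-positive than in tdTomato-zero cells of the E14.5 control library (median log2 3.57, against 0.03 over all tested genes). Of all tested genes 13.6% were higher in that comparison. Among tdTomato-positive cells at the later age, 3 of 12 were higher and 8 lower in gof (median -1.58, against -0.12), where 6.84% of all tested genes were higher and 16.6% lower. The lowest were Wnt3a, the hem Wnt ligand (39.7 CPM in control, 6.30 CPM in gof), and Rspo2 (695 and 141 CPM), and the highest were Bmp5 (28.5 and 62.3 CPM) and Bmp4 (27.3 and 52.1 CPM). Of 11 other midline transcription factors measured there 0 were higher and 3 lower, Lhx5 (31.3 and 3.20 CPM), Foxj1 (78.0 and 16.2 CPM) and, named after its value was seen, Msx1 (91.7 and 26.1 CPM). Of 8 Gli and Shh pathway genes, which include binding partners of Zic proteins, 1 was higher, the receptor Ptch1 (35.7 and 54.9 CPM), and 1 lower, the co-receptor Cdon (224 and 123 CPM), which is close to these shares of all tested genes. In whole E11.5 libraries 5 of 6 measured meningeal transcription factors were higher in gof (median 0.71, against -0.11 over all tested genes, of which 4.39% were higher), where the meningeal gate held 15.5% of kept cells against 9.65% in control.

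Genes with the most similar pattern were sought over 49 combinations of library and class, by Pearson's r of log2(CPM + 1) among 12391 genes, as a description. The 8 genes themselves and the gate markers were left out of this ranking. These points share libraries and depth. The closest to Lmx1a were Bfsp2 (r = 0.83), Sytl5 (0.82) and Zfp804b (0.81), to Lmx1b Abi3bp (0.73), Ctsk (0.70) and Col6a2 (0.69), to Otx1 Zfp219 (0.94), Rfx4 (0.89) and Sema5b (0.87), and to Otx2 Clybl (0.91) and Erbb4 (0.86). For Zic1 they were Flywch2 (0.87), Zfp618 (0.82) and Mdk (0.82), for Zic2 Glt8d1 (0.88), Nxn (0.85) and Dync2li1 (0.85), for Zic4 Clybl (0.90), Igfbp2 (0.85) and Flywch2 (0.84), and for Zic5 Tmem218 (0.88), Dpyd (0.88) and Fam204a (0.88). Clybl stood among the first 3 for both Otx2 and Zic4, and Flywch2 for both Zic1 and Zic4.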

How the data were processed

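Single-cell RNA-seq libraries were made with the 10x Chromium 3' v3.1 kit from 4 pools of mouse embryos. The authors deposited for each library the UMI counts of every gene in every barcode, unnormalized and made with Cell Ranger 7.1.0 on the mouse genome mm10, per the submitters' processing notes. The matrices hold 6263 to 8677 barcodes and 59594082 to 113821989 UMIs each. Intronic counting and strand are not given in the sources used here.

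A cell was kept if it held 1000 genes or more and no more than 10% of its UMIs were mitochondrial. Barcodes with the highest Scrublet scores (scanpy 1.11.5), 0.8% per 1000 barcodes, were removed as doublets. Of 106 marker genes in the gates, 104 are among the features, and a non-neural gate needed 3 markers of at least 2 UMIs. The 8 genes, the 3 closest genes of each by correlation, and the 2 highest and 2 lowest called genes of each list are named, except items that are not reported here. The 8 genes and the lists were chosen with earlier results of these data known. Sums were scaled to CPM, 1 CPM was added before log2 ratios, and calls follow the 1.5-fold rule given in the text, with no test because each group is 1 library. On simulated counts for the E14.5 tdTomato-positive comparison the rule called 100% of 80 genes changed 2-fold and 0% of 9709 unchanged genes. For the E11.5 tdTomato-positive comparison it called 98.75% of 80 genes changed 2-fold, 2.5% of 40 changed 1.25-fold and 0.241% of 8307 unchanged genes, and these simulations hold counting error only. Promoter windows come from the RefSeq table (GRCm38.p6) and gene positions from GENCODE M21. Alternatives changed the cell filter, doublet removal, scaling, pseudocount, minimum level, reporter limit, depth and gates.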

Additional observations from a re-analysis of the deposited data

Results flagged for a closer look

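The differences given here are those in which the log2 ratios of a gene pointed opposite ways in the 2 settings set side by side. None was tested, because each group was 1 library, and comparisons that use the same libraries are not independent.

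Within E14.5, the gof over control ratio was positive in tdTomato-positive and negative in tdTomato-zero cells for all 4 Zic genes. Zic1 stood at 1.20 and -0.47 (a gap of 1.67), and Zic4 at 1.54 and -0.44 (a gap of 1.99). Zic5 stood at 0.24 and -0.75 (a gap of 0.991), and Zic2 at 0.47 and -0.26 (a gap of 0.727).

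Between ages, the gof over control ratio of Zic2 went from -0.38 at E11.5 to 0.47 at E14.5 in tdTomato-positive cells (a gap of 0.85), and -0.33 and 0.22 in whole libraries (a gap of 0.549). In whole libraries the Otx1 ratio was -0.22 at the earlier and 0.08 at the later age (a gap of 0.296). Read the other way, the E14.5 over E11.5 ratio of Zic2 was -0.40 in control and 0.15 in gof, and that of Otx1 was -0.12 and 0.18, with the same gaps. In tdTomato-positive cells the E14.5 over E11.5 ratio of Zic1 was -0.55 in control and 0.23 in gof (a gap of 0.778), and that of Zic4 was -0.61 and 0.37 (a gap of 0.989). These positive gof ratios between ages all lay below the gof median of all tested genes, 0.59 in whole libraries and 0.46 in tdTomato-positive cells. Their sign thus depends on the scaling. The cause of these differences was not tested.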

How the results depend on the processing

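Of 112 log2 ratios of the 8 genes, 49 were called and 38 of these were called the same way under every alternative run. These ratios cover genotype in whole libraries and tdTomato-positive cells, reporter status, age, and meningeal-gated against neural cells. In the last comparison only the Zic genes were included. Genotype ratios within gates were not run under the alternatives. Direction was compared only for ratios called in the main setting. Over all alternatives 1188 log2 ratios kept their call or stayed uncalled, 31 lost the call, 28 gained one and 1 called ratio reversed. That 1 was Zic4 in tdTomato-positive against tdTomato-zero cells of the E11.5 control library, at -0.015 in place of 0.66 when each cell was thinned to 3000 UMIs. In the whole-library E11.5 genotype comparison the 1 gene called became 0 with the stricter cell filter (2000 genes or more and 5% or less of UMIs mitochondrial), with median-of-ratios scaling, with a minimum of 50 CPM and with neural cells only, and 2 with no minimum. In tdTomato-positive cells of E11.5 it became 0 with the stricter cell filter and with thinning, and 2 when haemoglobin, mitochondrial and ribosomal protein genes were left out of the scaling. The 7 genes called by reporter status in the E11.5 gof library became 4 with median-of-ratios scaling and 4 with a reporter limit of 1 UMI. The 1 Zic gene called between meningeal-gated and neural cells of the E11.5 control library became 0 with the stricter cell filter. Between ages, the count in tdTomato-positive control cells went from 2 to 1 with the stricter cell filter and to 4 with either other scaling. In gof it went from 2 to 4 in whole libraries with median-of-ratios scaling, and from 1 to 2 in tdTomato-positive cells with either other scaling. Shares of cells with a UMI moved in 63 of 64 cases when thinning was changed or left out, since they follow depth. Alternatives on neural cells only and on the choroid plexus gate were chosen after seeing the data. No paired analysis was possible because each group is 1 library and the libraries carry no replicate numbers that link them. With 1 pool per group, spread between embryos is unknown, and Lmx1b was too low to call in most sums.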
